A study of Mus musculus with 9 samples.

Results

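UDP-glucuronosyltransferases (UGT), glutathione S-transferases (GST) and sulphotransferases (SULT) are the main enzymes that attach a polar group to drugs, hormones and metabolites. Their genes were taken from the annotation by symbol: Ugt1, Ugt2 or Ugt3 followed by a letter, Gst followed by the class letter a, m, p, t, k, z or o and a digit, and Sult followed by a digit and a letter, with pseudogenes left out. The rule found 64 of 55385 annotated genes, of which 21 were UGT, 22 GST and 21 SULT. Of these, 34 reached 1 FPKM (sequenced fragments per kilobase of transcript, scaled by library) in at least 3 of the 9 libraries and were tested: 11 UGT, 19 GST and 4 SULT. Of the tested members 32 had a library at 1 FPKM in all 3 groups. Gstp3 reached it in all 3 day 3 libraries and in 1 other, so it passed only through day 3, where it is high, and Ugt1a6b reached it in 1 sham and 2 day 7 libraries. The other 30 are given at the end.

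The libraries come from kidneys of wild type C57BL/6 mice. The sham group (3 mice) received saline into the peritoneum, and the day 3 and day 7 groups (3 mice each) were sampled 3 and 7 days after cisplatin, a platinum drug that injures the kidney tubule, at 20 mg/kg by the same route. Age and sex are not given in the labels, but Xist was at most 0.13 FPKM and the Y-linked Ddx3y at least 1.66 FPKM in every library. The summed level of 5 sex-linked transcripts ran from 6.62 to 10.2 FPKM in sham, 20.6 to 28.5 FPKM at day 3 and 19.2 to 23.4 FPKM at day 7, and of the 4 tested, all Y-linked, 3 were called higher than sham at day 3 and 4 at day 7. The design asks how an early and a later phase of kidney injury differ. These are whole-kidney samples, so fewer cells of a type and less RNA per cell cannot be told apart.

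UGT enzymes sit in the membrane of the endoplasmic reticulum and move glucuronic acid from UDP-glucuronate onto their substrates, except those of the Ugt3 group, which use other UDP-sugars. GST enzymes join glutathione to electrophiles, and those taken here are sorted into alpha, mu, pi, theta, kappa, zeta and omega classes. SULT enzymes move sulphate from PAPS, the activated form of sulphate. In the kidney these reactions are strongest in the proximal tubule, which also takes up drugs such as cisplatin from the blood.

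The summed FPKM ranged from 421810 to 509537 between libraries, and the number of genes at 1 FPKM or more from 11647 to 13183. Read depth is unknown because the values are FPKM. Markers of the proximal tubule were present in every sham library, and all 14 were called lower at day 3, with a median log2 fold change of -3.15. Their summed level ran from 2660 to 5204 FPKM in sham, from 331 to 464 FPKM at day 3 and from 3165 to 3825 FPKM at day 7. The markers of other segments were low too: 6 of 6 of the thick ascending limb, 5 of 6 of the distal convoluted and connecting tubule and 5 of 7 of the collecting duct were called lower at day 3. Of 6 injured tubule markers 5 were called higher. Of 6 listed neutrophil markers 3 were tested, and all 3 were called higher. The listed neutrophil markers summed to 2.74 to 14.5 FPKM in sham and 29.2 to 104 FPKM at day 3. Of 5 tested macrophage markers 1 was called higher and 3 lower. The part of these changes in the results on conjugating enzymes was not tested. All genes together shifted upward at day 3, by a median of 0.25 on the log2 scale, with 5389 called higher and 2825 lower. After median-of-ratios scaling that shift was 0.03 and the split 4083 to 3951. For day 7 against sham the split was 2646 to 1429, or 2245 to 2227 after that scaling, and for day 7 against day 3 it was 2977 to 4626, or 3742 to 3744.

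At day 3, 6 of 11 tested UGT genes fell, 4 GST genes rose and 6 fell of 19, and 1 SULT gene fell of 4. Over all tested genes, 59.9% were called at day 3, 39.3% higher and 20.6% lower. The UGT sum was 848 ± 235 FPKM in sham, 136 ± 26.2 at day 3 and 1159 ± 176 at day 7 (SD, n = 3), so day 3 stood at 16.1% of sham and day 7 at 137%. The GST sum was 1092 ± 120 FPKM in sham, 1038 ± 513 at day 3 and 822 ± 51.3 at day 7 (SD, n = 3). The SULT sum was 164 ± 28.1 FPKM in sham, 146 ± 57.3 at day 3 and 343 ± 29.8 at day 7 (SD, n = 3), the last being 209% of sham. The UGT sums at day 3 did not overlap those of sham, whereas the GST and SULT sums at day 3 did. At day 7 the UGT sums, 957 to 1277 FPKM, overlapped those of sham, 614 to 1083 FPKM, while every SULT sum was above and every GST sum below the sham range. The lowest UGT sum of sham was that of library 1, which also had the lowest sum of proximal tubule markers in sham, 2660 FPKM beside 5117 and 5204 FPKM. These sums were not tested, since the members were chosen together.

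**Figure D1:**
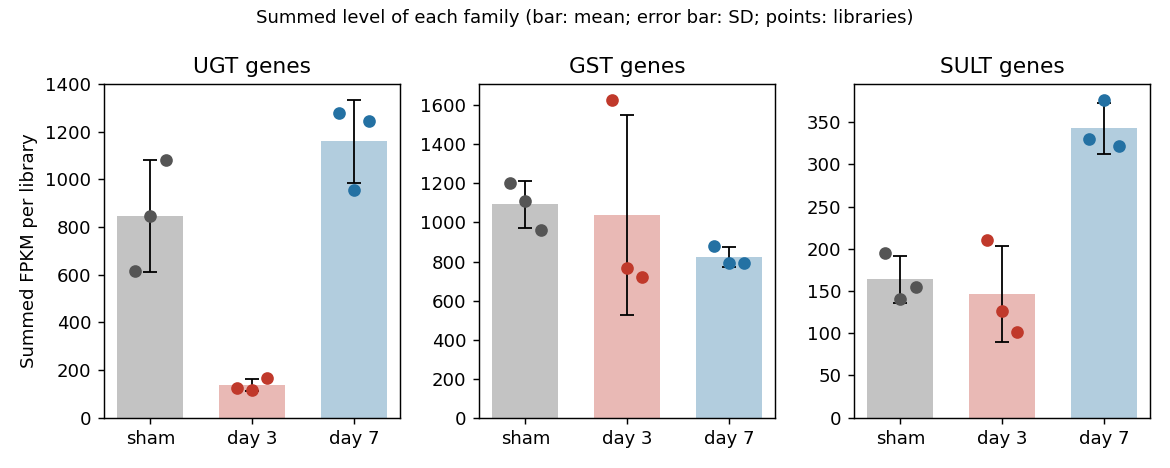
Summed FPKM of the UGT, GST and SULT genes in each library (points), with the group mean (bars) and SD (error bars). The 3 UGT points at day 3 lie between 117 and 166, below all sham points, and the GST points at day 3 spread from 719 to 1630.

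In the comparison of day 3 with sham, 17 of the 34 tested members were called by limma with adjusted p under 0.05, 4 higher and 13 lower, where 59.9% of all tested genes were called, 39.3% higher and 20.6% lower. The overall share of members was thus no higher than the background. By family, 6 of 11 UGT genes fell and 0 rose (1 higher and 7 lower at an unadjusted p under 0.05), with a median log2 fold change of -1.78. In the GST family 4 of 19 rose, among them Gstp3, which had passed the filter through day 3, and 6 fell, with a median of -0.07. In the SULT family 1 of 4 fell and 0 rose (1 and 1 at an unadjusted p under 0.05), with a median of -0.20. Median-of-ratios scaling gave 3 members higher and 17 lower.

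In the comparison of day 7 with sham, 7 members were called, 3 higher and 4 lower, where 29.7% of all tested genes were called, 19.3% higher and 10.4% lower. The median log2 fold change was 0.78 over the UGT genes, -0.41 over the GST genes and 0.56 over the SULT genes, beside 0.06 over all tested genes. These calls are the least firm of the report: after removal of a trend with GC content and transcript length in each library, all genes called fell from 4075 to 856 and members called from 7 to 1. Only the call of Gstp2 held in every alternative tried. Leaving out 1 library gave 2 to 12 calls, the 2 without sham library 2 and the 12 without day 3 library 1, which enters this comparison only through the shared estimate of the spread. Without day 7 library 3 there were 3.

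Between day 3 and day 7, 19 members were called, 13 higher at day 7 and 6 lower, where 55.4% of all tested genes were called, 21.7% higher and 33.7% lower. Among these were 8 UGT genes, all higher at day 7, 9 GST genes, 3 higher and 6 lower, and 2 SULT genes, both higher. The lower GST genes include Gstp3, which passed the filter only through day 3. The UGT genes include Ugt1a6b, which passed it only through sham and day 7 libraries. The filter thus favoured the direction of these calls. This comparison shares its libraries with the other comparisons.

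**Figure D2:**
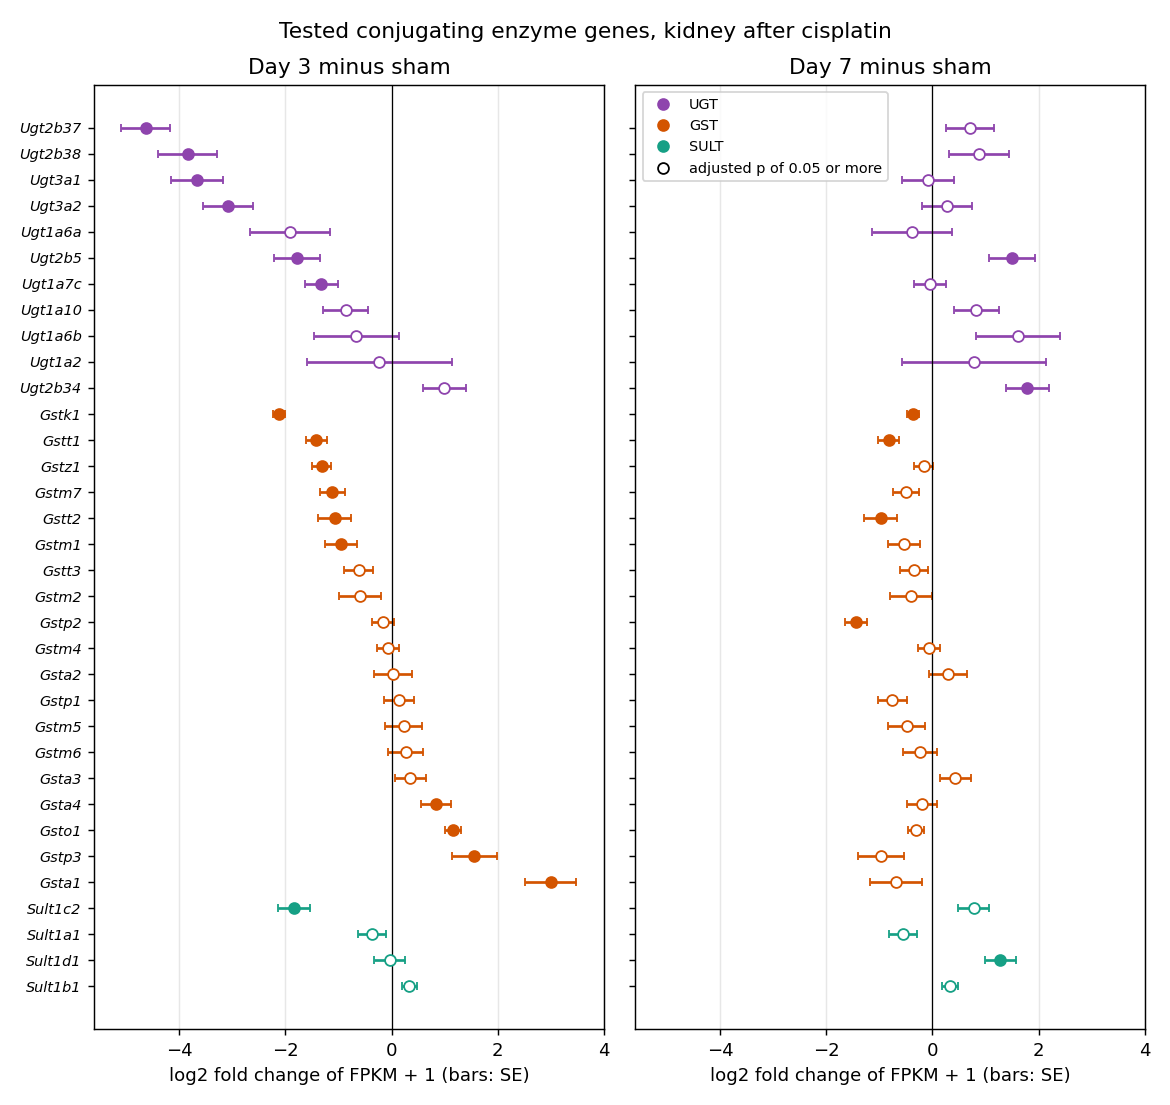
Log2 fold change of FPKM + 1 (horizontal axis, with SE) of the 34 tested members, ordered within each family by the day 3 value. Filled points have an adjusted p under 0.05; at day 3 the UGT points reach -4.64 and Gsta1 stands at 3.00, while most day 7 points lie nearer 0.

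Among the UGT genes, Ugt2b37, Ugt2b38 and Ugt2b5 lie in a block of chromosome 5 (86889767 to 87591594, GRCm38) that holds 13 members: 10 Ugt2 genes and Sult1b1, Sult1d1 and Sult1e1. The Ugt2b enzymes conjugate steroids, bile acids and many drugs. All 3 of these genes fell at day 3, while their neighbour Ugt2b34 was not called there. Their promoters, read from RefSeq on GRCm38.p6, are shown because the 3 genes share an identical stretch that Ugt2b34 lacks. Each line gives the 120 bases before the gene's RefSeq start on the minus strand of chromosome 5. In the first 3 lines the shared 62 bases are in capitals, and in the last line the bases of Ugt2b34 that match it best, CAAGTTANANTTTAAC, where N marks the bases that differ.
Ugt2b37, chr5:87254789-87254908: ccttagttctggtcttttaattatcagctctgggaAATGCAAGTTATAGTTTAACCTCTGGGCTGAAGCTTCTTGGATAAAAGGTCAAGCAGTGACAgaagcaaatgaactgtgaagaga
Ugt2b38, chr5:87424204-87424323: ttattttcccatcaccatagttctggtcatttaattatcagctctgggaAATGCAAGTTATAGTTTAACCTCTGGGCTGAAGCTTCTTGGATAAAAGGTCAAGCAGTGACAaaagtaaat
Ugt2b5, chr5:87140341-87140460: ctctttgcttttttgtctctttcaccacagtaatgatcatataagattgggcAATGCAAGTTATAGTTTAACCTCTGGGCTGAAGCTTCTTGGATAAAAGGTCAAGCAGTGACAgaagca
Ugt2b34, chr5:86906938-86907057: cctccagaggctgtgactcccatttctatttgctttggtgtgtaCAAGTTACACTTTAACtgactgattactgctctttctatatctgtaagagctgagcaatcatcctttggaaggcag

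An exact copy of the 62-base stretch was found in the 250 bases upstream of 3 of 27025 genes, these 3 alone. It begins 85 bases before the start of Ugt2b37, 71 before Ugt2b38 and 68 before Ugt2b5. The shorter motif is the longest stretch that Ugt2b34 shares with it at 2 differing bases. A search on both strands found the motif upstream of 4 genes, these 3 and Ugt2b34. Its bases N were set from Ugt2b34, so a gene that differs at other bases was not counted. The motif was chosen after the sequences had been read and is present in Ugt2b34 by construction. Near copies of the 62-base stretch were not counted, so its restriction to these 3 genes holds for exact copies only. The upstream bases of Ugt2b36, in the same block, hold a near copy of its last part, gcttcttagataaaaggtcaagcagtgaca. Further upstream, Ugt2b36 also holds bases that resemble the first part of the stretch. The upstream bases of Ugt2b35, in the same block, resemble both parts less closely. Ugt2b36 was below the filter and not tested, at 0 in every sham library and at 0.18, 0.95 and 0 FPKM at day 3. Ugt2b35 was also below the filter, at 0.1 FPKM or less in every library. Whether genes with near copies fell at day 3 was thus not tested. A match of letters is a description and not a binding site.

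Ugt2b37 (ENSMUSG00000057425, chromosome 5, 87240493 to 87254804) had the largest fall of any member at day 3. It stood at 48.85, 75.89 and 103.37 FPKM in sham, at 0.55, 2.35 and 4.02 FPKM at day 3, and at 142.76, 77.27 and 153.42 FPKM at day 7. All day 3 libraries were below all others, and sham and day 7 overlapped. The mean was 33.0-fold lower at day 3 than in sham, and the log2 fold change was -4.64 ± 0.46 (SE, adjusted p = 5.69e-05). From day 3 to day 7 it rose by 5.34 ± 0.46 (adjusted p = 3.62e-05), and day 7 differed from sham by 0.71 (adjusted p = 0.276).

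Ugt2b38 (ENSMUSG00000061906, chromosome 5, 87409942 to 87424203) was the UGT with the highest mean level at day 7 and over the 9 libraries, on the FPKM scale, which is per length. Its values were 143.93, 272.75 and 371.51 FPKM in sham, 5.96, 19.3 and 34.53 FPKM at day 3, and 523.39, 357.69 and 483.98 FPKM at day 7. The day 3 libraries were again lowest without overlap, and the day 7 range began inside that of sham. It fell by 3.84 ± 0.56 on the log2 scale at day 3 (adjusted p = 0.000435), and the day 7 difference from sham of 0.88 was not called (adjusted p = 0.269). Without Ugt2b38 the UGT sum was 585 FPKM in sham, 117 at day 3 and 704 at day 7, so the fall did not rest on that gene.

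Ugt2b5 (ENSMUSG00000054630) was a minor transcript, at 2.62, 7.3 and 11.03 FPKM in sham, 0.53, 1.91 and 1 FPKM at day 3, and 23.45, 13.89 and 21.45 FPKM at day 7. No group overlapped another. It fell by 1.78 ± 0.43 at day 3 (adjusted p = 0.00638) and stood 1.50 ± 0.43 above sham at day 7 (adjusted p = 0.0299). The day 7 call was lost without sham library 1, where the difference was 1.01 (adjusted p = 0.0538), without sham library 2 (0.0622), day 7 library 1 (0.0913) or day 7 library 3 (0.0864), and under 4 further alternatives. These 3 genes share part of their transcripts, in that 18.3% of the 50-base stretches of Ugt2b37, 37.4% of those of Ugt2b38 and 41.7% of those of Ugt2b5 occur in another gene, so their split is uncertain.

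Ugt2b34 (ENSMUSG00000029260, chromosome 5, 86889767 to 86906937) differed from these neighbours. It stood at 1.4, 2.28 and 3.36 FPKM in sham, 12.04, 3.18 and 3.96 FPKM at day 3, and 8.21, 12.28 and 10.51 FPKM at day 7. Every day 7 library was above every sham library, whereas at day 3 only library 1 was far above sham. The day 3 difference was 0.99 ± 0.41 (adjusted p = 0.0625), and the rise at day 7 was 1.79 ± 0.41 (adjusted p = 0.0128), which became 1.19 (adjusted p = 0.107) after the GC content and length trend was removed. Without day 3 library 2 the day 3 difference was called, at 1.31 (adjusted p = 0.0297). Only 1.4% of its 50-base stretches occur elsewhere.

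The Ugt3a pair of chromosome 15 fell as well. Ugt3a2 (ENSMUSG00000049152, 9335550 to 9370955) was the most abundant UGT of the sham group by mean, at 223.06, 288.38 and 374.72 FPKM. It was at 13.46, 43.99 and 61.23 FPKM at day 3 and at 365.38, 298.84 and 387.95 FPKM at day 7. Its day 3 values lay below all others and its sham and day 7 values overlapped. It fell by 3.08 ± 0.47 at day 3 (adjusted p = 0.000571), and day 7 differed from sham by 0.27 (adjusted p = 0.701). Ugt3a1 (ENSMUSG00000072664, 9276888 to 9315032), reported to use UDP-N-acetylglucosamine, stood at 55.25, 54.94 and 64.21 FPKM in sham, 0.86, 4.55 and 8.7 FPKM at day 3, and 56.39, 44.21 and 65.33 FPKM at day 7. It fell by 3.67 ± 0.50 at day 3 (adjusted p = 0.000291) and rose by 3.58 ± 0.50 between day 3 and day 7 (adjusted p = 0.000395). In all 4 of Ugt2b37, Ugt2b38, Ugt3a1 and Ugt3a2, day 3 library 1 held the lowest value.

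The 9 Ugt1a genes of chromosome 1 (88055388 to 88220002) are a special case. Each has its own first exon, and all are spliced to common exons 2 to 5, of which exon 2 spans 88215044 to 88215175. Exon 5 begins at 88218127 in each, but it ends at 88220002 in Ugt1a7c and at 88218997 or 88219004 in the others. The junctions are shown because the capitals, the first 30 bases of the common exon 2, are the same in each line. Reads that lie wholly in the common bases cannot name the gene. The lower case letters are the last 30 bases of each first exon, on the plus strand, from GENCODE M21 on GRCm38.
Ugt1a7c: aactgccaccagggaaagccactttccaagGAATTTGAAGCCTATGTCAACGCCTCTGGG
Ugt1a9: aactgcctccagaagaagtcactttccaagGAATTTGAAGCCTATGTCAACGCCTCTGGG
Ugt1a2: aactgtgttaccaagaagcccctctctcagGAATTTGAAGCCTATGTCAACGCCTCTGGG
Ugt1a5: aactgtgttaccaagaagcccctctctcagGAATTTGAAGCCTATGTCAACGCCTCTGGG
Ugt1a1: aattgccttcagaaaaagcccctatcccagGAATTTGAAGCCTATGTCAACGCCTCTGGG

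In these 60 bases Ugt1a2 and Ugt1a5 are identical. Between 54.2% of the 50-base stretches of Ugt1a7c and 96.0% of those of Ugt1a6a occur in another gene. The values of single Ugt1a genes swung between libraries of 1 group. In sham, Ugt1a2 had values of 46.9, 4.45 and 0.28 FPKM. Ugt1a9 was at 29.28 FPKM in sham library 3 and at 0 in the other sham libraries. Ugt1a5 and Ugt1a1 were at 17.08 and 16.32 FPKM in day 7 library 2 and at 0.02 to 0.22 FPKM or listed at 0 in the other day 7 libraries. Such single values are therefore uncertain.

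The sum over the locus varied less. It was 138, 144 and 154 FPKM in sham, 91.9, 39.7 and 52.9 FPKM at day 3, and 157, 152 and 120 FPKM at day 7. The day 3 sums were all below the others, at a mean of 42.2% of sham, and the day 7 mean was 98.2% of sham. Ugt1a7c took the largest part, with 62.74, 128.56 and 104.45 FPKM in sham, 43.27, 35.08 and 33.91 FPKM at day 3, and 124.9, 62.79 and 97.04 FPKM at day 7. It was the only Ugt1a gene called at day 3, with a fall of 1.32 ± 0.30 (adjusted p = 0.00509). Ugt1a6a, at -1.92 ± 0.75 (adjusted p = 0.0529), just missed the threshold and passed it under 6 alternatives, median-of-ratios scaling among them (adjusted p = 0.0294). The summed level of the Ugt2 and Ugt3 genes, by comparison, was 702 ± 227 FPKM in sham and 75.0 ± 39.9 FPKM at day 3 (SD, n = 3), which is 10.7% of sham.

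**Figure D3:**
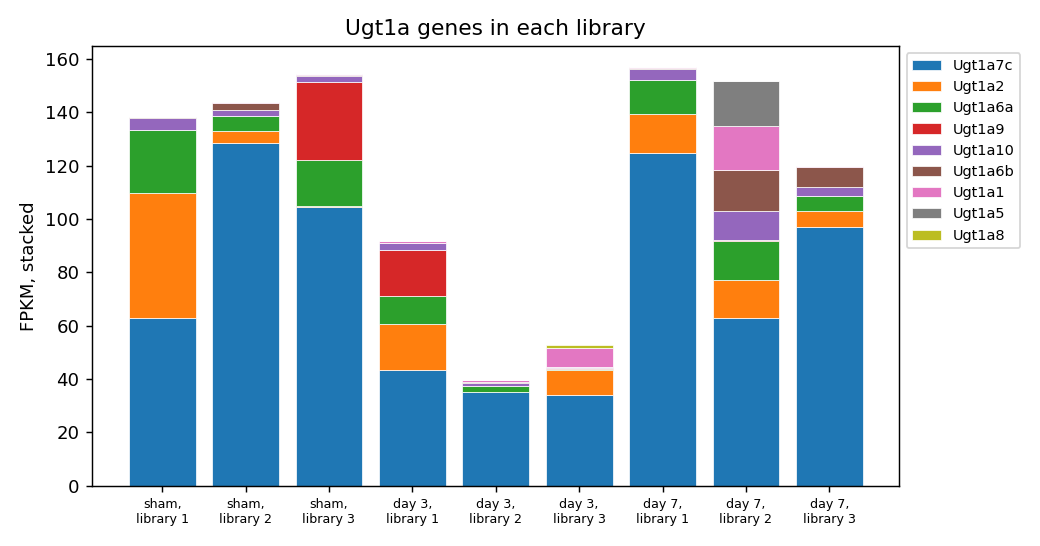
FPKM of the 9 Ugt1a genes stacked in each library. The height is the sum over the locus, 120 to 157 in the sham and day 7 libraries and 39.7 to 91.9 at day 3, while the colours show how the share given to single genes changed within a group.

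The alpha class GST genes include the detoxifying enzymes of lipid peroxidation products and the largest rise of the family. Gsta1 (ENSMUSG00000074183, chromosome 9, 78230656 to 78242684) stood at 17.38, 21.84 and 8.15 FPKM in sham, 263.83, 103.15 and 70.13 FPKM at day 3, and 7.15, 8.37 and 10.95 FPKM at day 7. All day 3 libraries were above all others, with library 1 far the highest, and sham and day 7 overlapped. The day 3 mean was 9.23 times that of sham, and the log2 fold change was 3.00 ± 0.49 (adjusted p = 0.00079). It fell by 3.69 ± 0.49 from day 3 to day 7 (adjusted p = 0.000303). Of its 50-base stretches, 82.9% occur in the neighbouring gene Gm3776, which stood at 8.89, 16.8 and 2.57 FPKM in sham and at 192.64, 72.61 and 57.63 FPKM at day 3. In all, 89.7% of the stretches of Gsta1 occur in some other gene. Gm10639, of the same region of chromosome 9, also rose at day 3, by 1.22 ± 0.31 (adjusted p = 0.00774). The rise can thus not be assigned to Gsta1 alone.

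Gsta4, which clears 4-hydroxynonenal, stood at 39.72, 37.6 and 32.13 FPKM in sham, 113.67, 49.98 and 49.78 FPKM at day 3, and 31.3, 32.94 and 30.53 FPKM at day 7. The day 3 libraries were above the others without overlap. The rise was 0.84 ± 0.29 (adjusted p = 0.0311), and it was not called after median-of-ratios scaling, at 0.54 (adjusted p = 0.104), nor without sham library 2 (0.0654) or sham library 3 (0.0889). Gsta2, the most abundant alpha class gene, was at 173.33, 117.99 and 112.19 FPKM in sham, 261.31, 89.69 and 104.59 FPKM at day 3 and 155.76, 162.82 and 165.03 FPKM at day 7. Its groups overlapped, and its day 3 difference of 0.03 (adjusted p = 0.944) became -0.44 without day 3 library 1 and -0.26 after median-of-ratios scaling. Of the 50-base stretches of Gsta2, 47.4% occur in another gene and 32.9% in Gsta1, so its values are uncertain too. Gsta3 was at 13.3 to 34.9 FPKM in all libraries and was not called in any comparison.

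Day 3 library 1 stood apart from libraries 2 and 3 in most GST genes. It held the highest value of its group in every tested GST gene except Gsto1, Gstp3 and Gstz1, though only narrowly in Gstk1 and Gstm2. Its GST sum was 1630 FPKM, beside 764 and 719 FPKM in the other day 3 libraries. Its median-of-ratios size factor was 1.19, beside 1.12 and 1.10 in those libraries. After that scaling the GST sums of day 3 libraries 1, 2 and 3 were 1371, 681 and 654 FPKM. It also had the lowest proximal tubule marker sum of the group, at 331 FPKM beside 370 and 464, and the lowest summed FPKM of all libraries. The part of these differences in the GST values was not tested.

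The mu class, a cluster of 7 genes on chromosome 3 (107895821 to 108044894), had 2 of 6 tested genes lower and 0 higher at day 3, by limma and at an unadjusted p under 0.05 alike, where 20.6% of all tested genes were called lower. Gstm1 (ENSMUSG00000058135) was the most abundant GST of sham, at 412.4, 378.24 and 340.65 FPKM, and stood at 332.84, 142.45 and 153.12 FPKM at day 3 and at 316.33, 219.49 and 249.49 FPKM at day 7. Its sham libraries lay above all others. The fall at day 3 was 0.95 ± 0.30 (adjusted p = 0.0232), a call lost under 7 alternatives, among them leaving out sham library 1 (adjusted p = 0.0603), sham library 2 (0.0581), day 3 library 2 (0.0821) or day 3 library 3 (0.0787). Gstm7 fell from 7.58 to 9.64 FPKM in sham to 2.38 to 5.78 FPKM at day 3, by 1.11 ± 0.24 (adjusted p = 0.00393). Gstm5 stood at 110.4, 121.65 and 113.92 FPKM in sham and at 264.11, 100.28 and 93.58 FPKM at day 3, so that library 1 was above and the other libraries below sham, and it was not called (adjusted p = 0.585). Gstm2, Gstm4 and Gstm6 were not called in any comparison.

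Of the 3 tested pi class genes of chromosome 19, only Gstp2 was called lower than sham at day 7. Gstp2 (ENSMUSG00000038155, 4040285 to 4046023) stood at 27.01, 23.53 and 23.63 FPKM in sham, 31.59, 19.42 and 17.43 FPKM at day 3, and 8.15, 9.75 and 7.64 FPKM at day 7. Sham and day 3 overlapped, and the day 7 libraries were below both. It was lower than sham by 1.44 ± 0.21 at day 7 (adjusted p = 0.00225), a 2.90-fold difference of the means, and was called under every alternative. Gstp1, with which Gstp2 shares 44.7% of its 50-base stretches, stood at 71.22, 81.28 and 54.94 FPKM in sham, 119.69, 60.24 and 58.95 FPKM at day 3, and 33.86, 40.67 and 46.56 FPKM at day 7. Its day 7 values were below all sham values, and the difference of -0.76 was not called (adjusted p = 0.0712), although it was after median-of-ratios scaling (adjusted p = 0.0346), with the 6 libraries alone (0.0264) and without day 3 library 1 (0.0132). How reads were divided between these copies is not known.

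Gstp3, a weak member of the same cluster, was tested only because of its day 3 values, so its differences from day 3 support no statement on the class. It stood at 3.5, 0.54 and 0.23 FPKM in sham, 4.88, 6.84 and 3.74 FPKM at day 3, and at 0, 0.13 and 0 FPKM at day 7. The day 3 libraries were above all others, although sham library 1 came close. The log2 fold change was 1.56 ± 0.43 (adjusted p = 0.0121), and the value at day 7 was lower than at day 3 by 2.53 ± 0.43 (adjusted p = 0.00113).

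The omega class enzyme Gsto1 (ENSMUSG00000025068, chromosome 19, 47854970 to 47864790), a thiol transferase that also reduces dehydroascorbate, stood at 28.54, 24.41 and 20.55 FPKM in sham, 47.38, 57.69 and 62.84 FPKM at day 3, and 18.88, 21.46 and 18.07 FPKM at day 7. The day 3 libraries were above the others without overlap, and here library 1 was the lowest of its group. Gsto1 rose by 1.16 ± 0.15 at day 3 (adjusted p = 0.000258) and fell by 1.47 ± 0.15 from there to day 7 (adjusted p = 9.54e-05). None of its 50-base stretches occurs in another gene, so this rise does not depend on a near-identical copy.

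Of the kappa, zeta and theta genes, Gstk1, Gstz1, Gstt1 and Gstt2 fell at day 3 and Gstt3 was not called. Gstk1 (ENSMUSG00000029864, chromosome 6, 42245935 to 42250447), an enzyme of mitochondria and peroxisomes, had the smallest standard error of all members. It stood at 46.75, 53.29 and 48.28 FPKM in sham, 11.46, 11.17 and 9.27 FPKM at day 3, and 38.82, 39.66 and 35.57 FPKM at day 7. No group overlapped another, and the day 3 mean was 4.65-fold below sham. The fall at day 3 was 2.12 ± 0.11 (adjusted p = 4.78e-06), and the difference at day 7 was -0.37 ± 0.11 (adjusted p = 0.0391). The day 7 call was lost under 9 alternatives: no filter, quantile normalization, removal of the GC content and length trend, and leaving out sham library 2 or 3, day 3 library 2, or any of the day 7 libraries. Gstz1, which isomerises maleylacetoacetate in tyrosine breakdown, was at 18.73, 29 and 29.07 FPKM in sham, 9.75, 8.42 and 10.38 FPKM at day 3 and 24.29, 19.41 and 23.28 FPKM at day 7, a fall of 1.32 ± 0.18 at day 3 (adjusted p = 0.000321).

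Of the 3 tested theta genes, 2 were called lower than sham at day 7, and neither call held after removal of the GC content and length trend. Gstt1 (ENSMUSG00000001663, chromosome 10, 75783813 to 75798584) stood at 85.75, 105.8 and 83 FPKM in sham, 46.33, 30.73 and 26.15 FPKM at day 3, and 51.3, 53.45 and 48.56 FPKM at day 7. The sham libraries were above all others and the day 7 libraries above those of day 3. It was lower than sham by 1.42 ± 0.20 at day 3 (adjusted p = 0.000349) and by 0.82 ± 0.20 at day 7 (adjusted p = 0.0159). The day 7 difference became -0.33 (adjusted p = 0.355) after the GC content and length trend was removed, and was not called without sham library 2 (adjusted p = 0.0604) or day 7 library 3 (0.0539). Gstt2 stood at 47.95, 29.76 and 23.14 FPKM in sham, 22.74, 13.62 and 10.26 FPKM at day 3, and 17.66, 14.38 and 15.8 FPKM at day 7. It was lower by 1.07 ± 0.31 at day 3 (adjusted p = 0.0157) and by 0.97 ± 0.31 at day 7 (adjusted p = 0.045). The day 3 call was lost without day 3 library 3 (adjusted p = 0.055), and the day 7 call without sham library 1 or 2, day 3 library 2 or any of the day 7 libraries (adjusted p from 0.0635 to 0.122). Gstt3 stood at 15.93, 12.78 and 11.61 FPKM in sham, 12.96, 8.32 and 5.26 FPKM at day 3, and 12.31, 8.95 and 9.71 FPKM at day 7. Its groups overlapped, and it differed from sham by -0.62 at day 3 (adjusted p = 0.0765) and by -0.35 at day 7 (adjusted p = 0.36).

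The sulphotransferases were led by Sult1d1 (ENSMUSG00000029273, chromosome 5, 87554645 to 87569027), which conjugates catecholamines. It stood at 156.23, 97.31 and 113.05 FPKM in sham, 187.46, 103.39 and 82.16 FPKM at day 3, and 281.33, 321.46 and 272.93 FPKM at day 7. Sham and day 3 overlapped, and all day 7 libraries were above both. The day 3 difference was -0.04 (adjusted p = 0.924), and the rise at day 7 was 1.27 ± 0.29 (adjusted p = 0.0129). That rise became 0.83 (adjusted p = 0.11) after removal of the GC content and length trend and 1.13 (adjusted p = 0.0508) without sham library 2. Without Sult1d1 the SULT sum was 41.5 FPKM in sham, 22.0 at day 3 and 50.8 at day 7.

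Sult1c2 (ENSMUSG00000023122, chromosome 17, 53829637 to 53846339), a phenol sulphotransferase, was the only SULT gene called at day 3. It stood at 12.25, 30.62 and 27.86 FPKM in sham, 5.79, 4.55 and 6.03 FPKM at day 3, and 35.55, 42.7 and 37.08 FPKM at day 7. No group overlapped another. It fell by 1.84 ± 0.30 at day 3 (adjusted p = 0.000759) and rose by 2.61 ± 0.30 from there to day 7 (adjusted p = 0.00014), and the day 7 difference from sham of 0.78 was not called (adjusted p = 0.079). Sult1a1, the general phenol sulphotransferase, stood at 24.16, 10.95 and 12.24 FPKM in sham, 12.52, 12.13 and 9.46 FPKM at day 3 and 10.39, 10.22 and 8.74 FPKM at day 7, and was not called in any comparison. Sult1b1, at 1.02 to 2.41 FPKM in all libraries, was not called either.

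**Figure D4:**
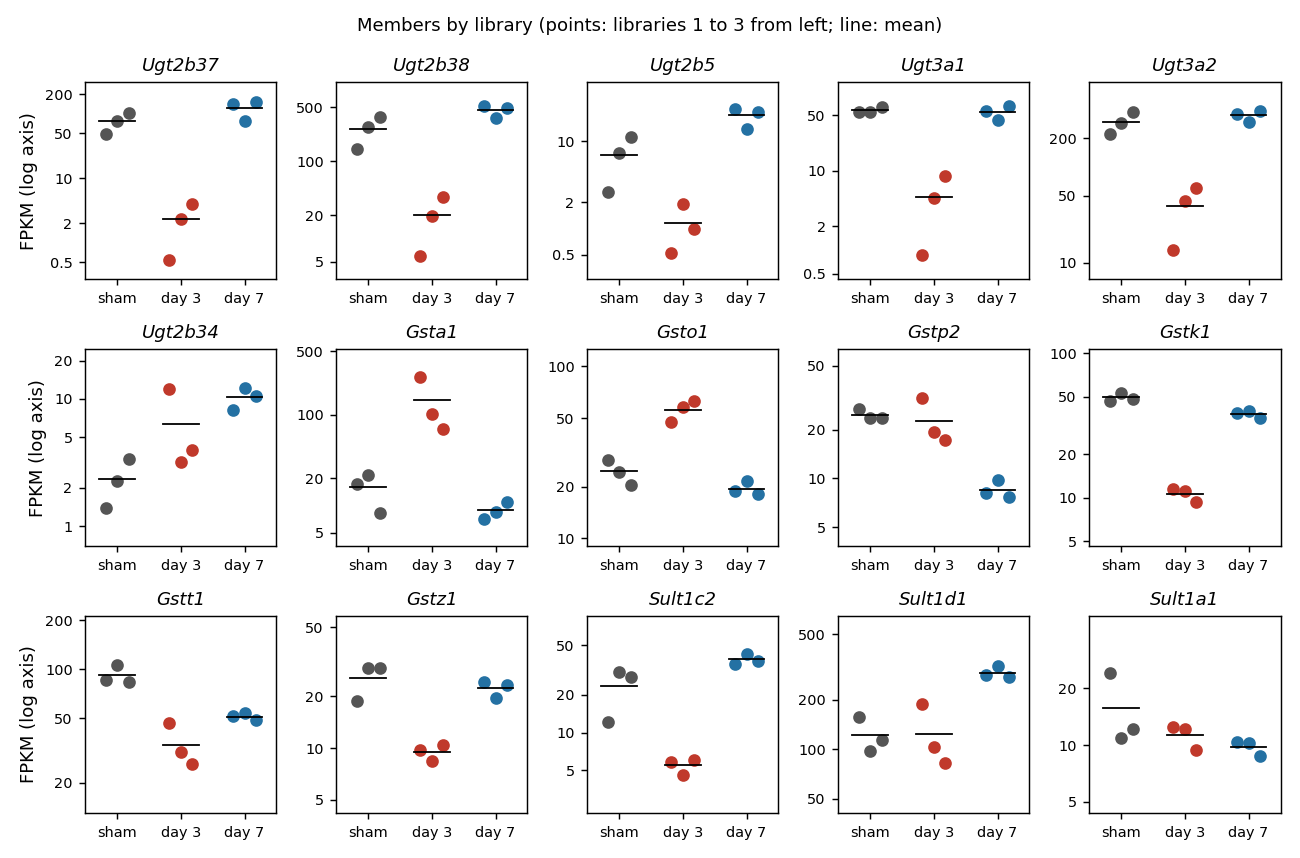
FPKM on a log axis of 15 members in the 9 libraries (points, libraries 1 to 3 from left to right) with the group mean (line). Ugt2b37 runs from 0.55 at day 3 to 153.42 at day 7, Gsta1 and Gsto1 are high at day 3, and Gstp2 is low at day 7 only.

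The genes that supply the donors of these reactions were read from lists chosen by function. Their counts stand beside the 39.3% of all tested genes called higher and 20.6% called lower at day 3. For day 7 against sham these shares were 19.3% and 10.4%. Of 4 genes listed for making UDP-glucuronate or carrying nucleotide sugars, 1 rose and 1 fell at day 3. Ugdh, which oxidises UDP-glucose to UDP-glucuronate, was at 10.41 to 11.95 FPKM in sham and 29.65 to 50.38 FPKM at day 3, a rise of 1.67 ± 0.19 (adjusted p = 0.000104). Slc35a3, known as a Golgi carrier of UDP-N-acetylglucosamine, fell by 0.65 ± 0.16 (adjusted p = 0.00685). Slc35d1, a carrier of UDP-glucuronate named after its values were seen, was at -0.06 and not called (adjusted p = 0.706). At day 7 Ugp2, which makes UDP-glucose, stood 0.85 ± 0.15 above sham (adjusted p = 0.00484), and Slc35a3 stood 0.60 ± 0.16 above it (adjusted p = 0.0232). Neither call held after removal of the GC content and length trend, which left 0.37 (adjusted p = 0.152) and -0.075 (adjusted p = 0.808). Slc35a3 was also not called without sham library 2, day 7 library 1 or day 7 library 3.

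Of 8 genes listed under PAPS supply and sulphate uptake, 2 rose and 6 fell at day 3, with a median of -0.89. The list includes Bpnt1 and Impad1, which neither make PAPS nor carry sulphate. The sulphate carrier of the apical membrane, Slc13a1, fell from 24.97 to 39.28 FPKM in sham to 2.4 to 4.41 FPKM, by 2.81 ± 0.23 (adjusted p = 2.69e-05). Its basolateral counterpart Slc26a1 fell by 2.57 ± 0.21 (adjusted p = 2.26e-05), and the PAPS synthase Papss2 by 2.06 ± 0.22 (adjusted p = 9.51e-05). At day 7, 3 were called higher than sham and 1 lower, where 19.3% of all tested genes were called higher and 10.4% lower. Bpnt1 stood 0.96 ± 0.26 above sham (adjusted p = 0.0236), Impad1 0.75 ± 0.11 above it (adjusted p = 0.0023), and the PAPS carrier Slc35b2 at -0.70 ± 0.12 (adjusted p = 0.0047). Papss1, named after its values were seen, was the other at 0.47 ± 0.15 (adjusted p = 0.0468). Without the GC content and length trend Bpnt1, Impad1 and Slc35b2 became 0.78, 0.05 and -0.23, and none of these was called. The call of Bpnt1 was also lost without sham library 2 or any 1 of the day 7 libraries. It did not hold after median-of-ratios scaling, at 0.85 (adjusted p = 0.0611), or with no filter (0.0599).

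Of 6 tested genes of glutathione supply, 4 rose and 1 fell at day 3. Gclc, the catalytic subunit of the rate-limiting enzyme of glutathione synthesis, stood at 42.73 to 64.91 FPKM in sham and at 131.08 to 289.67 FPKM at day 3, a rise of 1.84 ± 0.28 (adjusted p = 0.000529). Glutathione reductase, Gsr, rose by 1.02 ± 0.13 (adjusted p = 0.000172). At day 7, 1 of the 6 was called by limma, the amino acid carrier subunit Slc3a2, at -0.43 ± 0.10 (adjusted p = 0.0169), or -0.22 without the GC content and length trend (adjusted p = 0.242). That call was also lost without sham library 2, day 7 library 1 or day 7 library 3. Among 4 tested membrane-bound and sigma class transferases, which the symbol rule does not take, Hpgds rose by 2.33 ± 0.15 (adjusted p = 8.59e-06) and Mgst3 fell by 1.22 ± 0.28 (adjusted p = 0.00458). Mgst1 stood 1.07 ± 0.39 above sham (adjusted p = 0.0418) with overlapping groups, a call that was lost without any 1 of 7 libraries (all but sham library 1 and day 3 library 3), with the adjusted p reaching 0.137, and after median-of-ratios scaling, at 0.77 (adjusted p = 0.0915).

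Of 9 carriers that export conjugates, 5 rose and 1 fell at day 3, or 66.7% called, near the 59.9% of all tested genes. Abcc3, a basolateral carrier of glucuronides, rose by 1.76 ± 0.23 (adjusted p = 0.00022) from under 1 FPKM in every sham library to between 3.59 and 6 FPKM. Abcb1b rose by 1.17 (adjusted p = 0.00248) and Abcc6 fell by 1.17 (adjusted p = 5.11e-05). None of the 9 was called at day 7 by limma, and 0 had an unadjusted p under 0.05. Of 3 tested enzymes that remove glucuronate or sulphate, Arsa rose by 0.89 ± 0.22 (adjusted p = 0.00799) and Arsb fell by 1.46 ± 0.28 at day 3 (adjusted p = 0.00182). Gusb was called at 0.40 ± 0.13 (adjusted p = 0.0261), but at 0.14 after median-of-ratios scaling (adjusted p = 0.454), and not without sham library 1 or day 3 library 3.

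Of 17 tested transcription regulators of conjugating enzymes, 8 rose and 5 fell at day 3. Nfe2l2, which encodes NRF2, the activator of the antioxidant response, stood at 22.98 to 29.78 FPKM in sham and 70.14 to 88.18 FPKM at day 3, a rise of 1.52 ± 0.15 (adjusted p = 6.51e-05). It was picked here after its values were seen. Its small partners Maff and Mafk rose by 3.07 and 2.55. Hnf4a, a proximal tubule regulator and also one of the 14 markers above, fell from 131 to 195 FPKM in sham to 17.1 to 47.1 FPKM at day 3, by 2.68 ± 0.33 (adjusted p = 0.000186). Of 6 genes known as NRF2 targets, 5 rose, led by Srxn1 (4.39 ± 0.62, adjusted p = 0.000353), Txnrd1 (2.45 ± 0.26, adjusted p = 8.3e-05) and Hmox1 (2.06 ± 0.17, adjusted p = 2.85e-05). At day 7 none of the 6 was called higher by limma (1 at an unadjusted p under 0.05), and Hmox1 stood at -0.87 ± 0.17 against sham (adjusted p = 0.00751), or -0.55 without the GC content and length trend (adjusted p = 0.102). Of the regulators, 2 were called higher and 2 lower at day 7, or 23.5% called, where 29.7% of all tested genes were called. Arnt and Bach1 were higher, and Cebpb and Keap1 lower, of which Keap1 is named after its values were seen. Arnt, the partner of the AHR, stood 0.71 ± 0.23 above sham (adjusted p = 0.0424), a call lost without any 1 library but day 7 library 3, and without the GC content and length trend (adjusted p = 0.196). Cebpb stood at -0.62 ± 0.19 (adjusted p = 0.0419), a call lost without any 1 library but sham library 2 and day 3 library 1, and without that trend (adjusted p = 0.548). Bach1, a repressor of the antioxidant response, stood 0.67 ± 0.11 above sham (adjusted p = 0.0038), or 0.33 without that trend (adjusted p = 0.11).

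The 250 bases upstream of the start were available in the RefSeq table for 30 of the 34 tested members. The antioxidant response element core TGACNNNGC, searched on both strands, was found in 3 of them, Gsta3, Gstm5 and Gstm7, and in 11.5% of 27025 genes. None of these members rose at day 3. Gstm7 was listed with different starts, and its match lay in the window 107931615 to 107931864. Most of that window is inside the annotated gene, which ends at 107931817. The window of the outer start, 107931818 to 107932067, held no match. The AHR core GCGTG was found in 7 of the 30 and in 30.85% of all genes. An absence says only that the letters are not in this window.

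Of the 30 members below the filter, 8 were listed at 0 in every library, 15 were above 0 but never at 1 FPKM, and 7 reached 1 FPKM in 1 or 2 libraries. Those at 0 were 7 SULT genes and Ugt2a2. The Sult2a cluster of chromosome 7 (13623967 to 14494230) holds 8 genes, none of them above 0.46 FPKM. Sult1e1, the oestrogen sulphotransferase, had values of 0.93, 2.16 and 0.76 FPKM at day 3 and 0.08, 0 and 0 FPKM at day 7, with every sham library at 0. It was above 0 in all 3 day 3 libraries and in 1 of the other 6, and it was below the filter and so not tested.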

How the data were processed

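The authors deposited FPKM per gene and library, rounded to 2 decimals, per the files' values. HISAT, StringTie, FastQC 0.10.1 and GRCm38 are named in the submitters' processing notes. Annotation release and strandedness of counting: not given in the sources used here. FPKM is scaled within a library, so abundant transcripts lower all others. Symbols came from GENCODE M21 (55144 IDs matched). Values were tested as log2(FPKM + 1), which understates changes of weak genes, over 13718 genes at 1 FPKM or more in at least 3 of 9 libraries. limma 3.58.1 (R 4.3.3) fitted the 3 groups to all libraries, with eBayes, a mean trend, two-sided tests and Benjamini-Hochberg adjusted p-values over those genes (threshold 0.05). The fit was tested on simulated data. Libraries of a group correlated at 0.942 to 0.98, and p-values cover the spread between 3 mice. Members and lists were chosen with earlier results of these data known. Named members were, per family and comparison, up to 5 called with the largest change, the 3 most abundant in sham, those called against their family's direction at day 3 and all called at day 7, plus up to 3 called genes per functional list. Shared sequence was counted as 50-base stretches of GENCODE transcripts. The alternatives are listed in the closing section.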

Additional observations from a re-analysis of the deposited data

How the results depend on the processing

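Results were recomputed with quantile normalization, with median-of-ratios scaling, with a pseudocount of 0.1, with robust variance, without a filter or with one at 5 FPKM, on only the 6 libraries compared, with a replicate block, with a 2-fold minimum, without a GC content and length trend, and without each library in turn. Of the member calls, 14 of 17 at day 3, 1 of 7 at day 7 and 16 of 19 between the days held under all of them except the 2-fold minimum; those lost were Gsta4, Gstm1 and Gstt2 at day 3, all but Gstp2 at day 7, and Gstt1, Gstp1 and Ugt1a6b between the days. Where a call was lost the cause was not tested. Gstp3, which passed the filter only through day 3, is among the calls that held at day 3 and between the days. At day 7 against sham, members called numbered 4 with no filter, 12 with 6 libraries, 1 without the GC content and length trend, 4 at 2-fold, and 2 to 12 leaving out 1 library. For UGT they were 1 with the pseudocount of 0.1, 1 with no filter, 1 with 6 libraries, 0 without the trend, and 1 to 2 leaving out 1 library; for GST 2 with no filter, 9 with 6 libraries, 1 without the trend, 1 at 2-fold, and 1 to 8; for SULT 2 with 6 libraries, 0 without the trend, and 0 to 2. SULT genes called at day 3 were 3 with no filter and 2 with median-of-ratios scaling, and 4 between the days with no filter. Family sums without the most abundant member moved to 584.77 and 704.14 FPKM (UGT in sham and at day 7), 715.1 and 560.17 (GST in sham and at day 7), and 41.483, 22.017 and 50.767 (SULT in sham, at day 3 and at day 7).

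Replicate numbers are shared between groups. Deviations of same-numbered libraries correlated at -0.05 to 0.24, above 0.1 in 3 of 9 such pairs and in 1 of 18 others, and a library correlated best with its own number in 9 of 18 cases. Since not every pair was above 0.1, the numbers were not taken to pair the mice. With the replicate block, 20, 7 and 19 members were called in the 3 comparisons, adding Gstt3 (adjusted p = 0.0214), Gstm2 (0.0266) and Ugt1a6a (0.0301) at day 3, and 8212, 3885 and 7540 genes in all.

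Of 102 member differences 26 took both signs over the alternatives, none of them called in the report. The widest were those of Ugt1a2, at -1.45 to 1.17 at day 3, -0.44 to 2.17 at day 7 and -0.22 to 1.83 between the days. Slc35a3 at day 7, called in the report, was -0.075 without the trend. At day 3, Gsta2 became -0.26, and Gstm5 -0.065, after median-of-ratios scaling; leaving out 1 library gave -0.44 to 0.32 for Gsta2, -0.25 to 0.50 for Gstm5, -0.40 to 0.0069 for Gstp2 and -0.37 to 0.22 for Sult1d1. Gstp2 was 0.065 without the trend and Sult1d1 0.077 under quantile normalization. At day 7, quantile normalization gave 0.12 for Ugt1a7c and 0.052 for Ugt3a1, leaving out 1 library gave -0.34 to 0.22 and -0.21 to 0.065 for these genes, and Ugt3a2 was -0.092 without the trend. Between the days, leaving out 1 library gave -0.038 to 0.73 for Gsta2 and -0.14 to 0.40 for Gstt2.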

Other observations

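Some members below the filter followed 1 library. Day 3 library 2 held the highest values of Ugt2b1 (0.96 FPKM), Ugt2b36 (0.95 FPKM), Sult2a8 (0.46 FPKM) and Gstt4 (1.16 FPKM), each listed at 0.16 FPKM or less in all sham libraries. The same library held the highest Alb (118.08 FPKM, beside 3.33 to 5.27 FPKM in sham), Apoa1 (32.39 FPKM) and Cyp2c29 (1.78 FPKM), which are liver markers. Of the 4 liver markers, Ttr did not follow, at 24.87 FPKM there and 82.15 to 87.05 FPKM in sham. The part of liver transcripts in these values was not tested. Sult2b1, a cholesterol sulphotransferase that epithelia express, stood at 1.25, 1.63 and 0.91 FPKM at day 3 and at 0.79, 0.48 and 0.17 FPKM in sham.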
